A study of Mus musculus with 5 samples.

Results

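The 10 genes described here act on methylation of H3K36, a mark laid on histone H3 in transcribed chromatin. They are the writers Setd2, Nsd1 and Ash1l, the erasers Kdm2a and Kdm4a, and the readers Dnmt3a, Morf4l1, Psip1, Zmynd11 and Msh6. They were chosen by what their proteins do, though with earlier results of these data known. RNA polymerase II (Pol II) was measured over them in regulatory T (Treg) cells with and without Setd2, and the question was whether any of the other 9 genes changed when Setd2 was lost. Every peak whose midpoint lay in the mm10 body of a gene or in the 3 kb upstream of it was taken, which gave 83 of the 56615 peaks in the series, and all 10 genes had a peak, among 12876 genes with one.

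CUT&Tag directs a transposase to the chromatin that an antibody binds, so that reads collect where Pol II sits. All mice were of the C57BL/6 strain and 8 weeks old, with females and males pooled, and all carried a Cre-YFP driven from Foxp3, the gene of the transcription factor that defines Treg cells. Ctrl mice had 1 floxed Setd2 allele and KO mice had both floxed, so in Treg cells of Ctrl mice too the floxed allele was open to deletion. Both groups were injected with IL-2c, a complex of 1 µg IL-2 and 5 µg antibody to IL-2 that expands Treg cells, on 3 days and were killed 48 hours after the last injection. CD3+CD4+YFP+ cells of the spleen were sorted and 80000 nuclei went into a library. There were 2 Ctrl and 2 KO libraries. The methods count the nuclei of a library as a biological replicate and say that cells of 2 mice were pooled. It is not clear whether the libraries of a group came from separate pools, so p-values here measure the spread between libraries, which may be technical. An IgG library was not analysed here. In a bulk library, fewer cells with Pol II on a gene and less Pol II per cell cannot be told apart.

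Reads summed over the 56615 peaks ranged from 4489646 in KO 2 to 13351007 in KO 1. This sum is what depth means here, and reads outside peaks are not counted in it. The libraries numbered 2 were the shallower in both groups. All 10 Treg and T cell markers examined had a peak, with log2 fold changes from -0.14 at Cd4 to 0.20 at Ikzf4, and 1 of 16 markers of other spleen cells did. That marker was the B cell gene Cd79a, with 67.7 to 121 normalised reads in the 4 libraries and groups that overlapped. The other 15 markers, of B, CD8 T, NK, myeloid, erythroid and epithelial cells, had no peak. A normalised read count is the read count divided by the size factor of the library, and counts of a gene are sums over its peaks.

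H3K36 methylation is built in steps. Nsd1 and Ash1l place up to a pair of methyl groups, Ash1l near promoters of active genes, and Setd2 adds the last one while it travels with elongating Pol II, so that H3K36me3 lies over gene bodies. Kdm2a removes the lower states and Kdm4a removes trimethylation. The mark is read through chromo and PWWP domains, which bring DNA methylation, histone deacetylation, mismatch repair and control of elongation to transcribed genes.

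None of the 10 genes passed the test (0 of 10, where 0.101% of all genes did). Setd2 itself did not differ by more than the spread between libraries, and no other writer, eraser or reader passed the threshold. Among sums over promoter and over gene body peaks, the value farthest from 0 was that of the body of Kdm4a, the eraser of the mark that Setd2 writes. Its gene body peaks held 2.18 times the Ctrl reads in KO, a difference that did not pass after adjustment, while its promoter peak was level.

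Setd2, the gene that Cre deletes, lies on chr9:110532597-110618633 (GRCm38, plus strand). Its normalised count was 524.7 (Ctrl 1), 512.5 (Ctrl 2), 458.1 (KO 1) and 560.3 (KO 2). The KO libraries lay on both sides of the Ctrl libraries, so the groups overlapped. Relative to Ctrl, KO gave a log2 value of -0.036 ± 0.19 (SE), a fold of 0.975 with a 95% interval of 0.754 to 1.26 (n = 2 and 2; DESeq2 Wald test, adjusted p = 0.9996). The interval does not reach a fall to 0.5 of the Ctrl level. Loss of the Setd2 protein was not measured by this assay, and the labels do not say which exon lies between the loxP sites, so these counts are no check of the deletion. The sign turned when KO 1 was left out (0.11).

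The Setd2 start site lay in 1 promoter peak, chr9:110531942-110533185. It had 229.3 and 191.5 normalised reads in Ctrl, against 210.9 and 236.7 in KO, and the groups overlapped with a log2 fold change of 0.077 ± 0.27 (DESeq2, adjusted p = 0.9999). The promoter sequence is shown because this peak, the highest of Setd2, lies over it. It is the RefSeq window of 250 bases before to 50 bases after the start (chr9:110532347-110532646, GRCm38.p6, plus strand), with the GC box GGGCGG or its complement CCGCCC in capitals.

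Setd2 promoter: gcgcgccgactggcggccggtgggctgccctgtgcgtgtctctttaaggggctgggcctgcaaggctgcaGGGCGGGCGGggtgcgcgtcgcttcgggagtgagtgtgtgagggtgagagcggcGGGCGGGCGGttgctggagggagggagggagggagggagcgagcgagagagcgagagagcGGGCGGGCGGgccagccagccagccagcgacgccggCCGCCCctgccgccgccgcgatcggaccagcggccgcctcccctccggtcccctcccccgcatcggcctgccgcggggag

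The window held 38 CpG dinucleotides, against a median of 7 over 32851 RefSeq promoters, and 7 GC boxes counted on both strands with overlaps. A GC box was found in 35.7% of those promoters.

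Over 3 kb from the start site, Setd2 had 8 gene body peaks. All were small, and of the 9 peaks the lowest had a mean of 24.7 normalised reads. Their summed count was 295.4 and 321 in Ctrl, beside 247.2 and 323.6 in KO, and the groups overlapped (log2 fold change -0.12 ± 0.23; DESeq2, adjusted p = 0.9998). Of them, 4 did not overlap between groups, where 32.3% of all peaks did not, and these were picked out after their values were seen. The peak in a coding exon 61.7 kb from the start had 21.6 and 12.4 reads in Ctrl and 25.5 and 39.2 in KO. The intronic peaks at 7.66, 10.9 and 85.2 kb were lower in KO, and the last of these, 0.840 kb before the gene end, had 84.8 and 84.0 reads in Ctrl and 58.2 and 68.1 in KO. The log2 fold changes of the 9 peaks ran from -0.66 to 0.87, 5 positive and 4 negative. The peaks of Setd2 thus had values on both sides of 0 along the gene, none past the threshold.

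Among the other writers, Nsd1 (chr13:55209782-55318325, plus strand) had 7 peaks and the normalised counts 1105, 850.1, 1135 and 895.9 in Ctrl 1, Ctrl 2, KO 1 and KO 2. The deeper library was the higher one in each group and the groups overlapped (log2 fold change 0.057 ± 0.18; DESeq2, adjusted p = 0.9996). Its highest peak, 1.93 kb into the gene, held 754.7 and 509.8 reads in Ctrl and 768.2 and 556.9 in KO (log2 fold change 0.069 ± 0.25). An intronic peak 65.3 kb from the start, named after its values were seen, fell short of the unadjusted threshold, with 25.2 and 35.8 reads in Ctrl and 13.1 and 10.2 in KO (log2 fold change -1.35 ± 0.70). The last Nsd1 peak is shared with the neighbouring gene Prelid1, and reads in it cannot be credited to either.

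Ash1l (chr3:88950622-89079375, plus strand), which methylates H3K36 in the chromatin of developmental genes, had 695.1 and 655.8 normalised reads in Ctrl and 566.2 and 643.8 in KO. KO lay below Ctrl in both libraries, by a small margin (log2 fold change -0.17 ± 0.17; DESeq2, adjusted p = 0.9996). All 4 of its peaks had a negative log2 fold change. The highest, at the start site, had 488.1 and 395.4 reads in Ctrl and 393.3 and 393.4 in KO (log2 fold change -0.17 ± 0.22). That peak is shared with the divergent gene Dap3, and reads in it cannot be credited to either. The 3 body peaks of Ash1l together had 207.0 and 260.4 reads in Ctrl and 172.9 and 250.4 in KO, and there the groups overlapped. Ash1l was the single member whose groups did not overlap with KO below Ctrl.

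Kdm4a (chr4:118136957-118180043, minus strand), a Jumonji demethylase that takes methyl groups from H3K36 and H3K9, had 610.3 and 508.4 normalised reads in Ctrl and 694.5 and 674.4 in KO. Both KO libraries were above both Ctrl libraries, and the difference of 125 between the group means exceeded the SD of 72.0 in Ctrl and of 14.2 in KO. The log2 fold change was 0.29 ± 0.18 (DESeq2, adjusted p = 0.9996), with values of 0.17 when Ctrl 2 was left out and 0.44 when Ctrl 1 was. The edgeR quasi-likelihood test gave an unadjusted p below 0.05 and an adjusted p of 0.969.

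The difference at Kdm4a lay in the gene body. The promoter peak had 492.4 and 436.8 reads in Ctrl, against 499.6 and 447.9 in KO, and the groups overlapped (log2 fold change 0.030 ± 0.22). The 3 body peaks together had 117.9 and 71.6 reads in Ctrl and 194.9 and 226.5 in KO. Every KO value was above every Ctrl value, and the means differed by more than the spread within either group. In counts summed over all peaks, groups did not overlap at 34.2% of all genes, and the matching share for body sums was not computed. The body of Kdm4a was picked out as the value farthest from 0 among the promoter and body sums. The log2 fold change of the body was 1.12 ± 0.32, a fold of 2.18 with a 95% interval of 1.42 to 3.34 (DESeq2, adjusted p = 0.188, rank 14 by p among 7190 genes with a body peak). The body of Kdm4a is made of few reads, and leaving out 1 library at a time moved the log2 fold change of its largest body peak between 0.85 and 1.60.

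The largest body peak, chr4:118162080-118162855, is 17.6 kb from the start and holds coding exon 9 of Kdm4a. It had 74.0 and 44.1 normalised reads in Ctrl and 124.2 and 143.1 in KO (log2 fold change 1.14 ± 0.38; DESeq2, adjusted p above 0.9999). The edgeR quasi-likelihood test gave this peak an adjusted p of 0.126. The next peak, in an intron 18.98 kb from the start, had 23.0 and 15.2 reads in Ctrl and 32.7 and 66.4 in KO (log2 fold change 1.31 ± 0.60). The third, 26.1 kb from the start and given to complete the body of the gene, outside the rule for naming peaks, had 20.8 and 12.4 in Ctrl, against 38.0 and 17.0 in KO, and there the groups overlapped. The comprehensive annotation places the start of a processed transcript, Kdm4a-206, at position 118161657 between the first 2 of these peaks. It was outside the set of start sites used here, and the reads cannot be divided between it and the full gene.

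The sequences of the level and of the higher region of Kdm4a are given for comparison, both on the minus strand. The promoter is the RefSeq window on chr4:118179994-118180293 (GRCm38.p6) and has none of the GC boxes of the Setd2 window, hence no capitals. The second is chr4:118162369-118162668 (GRCm38), centred on exon 9 with its 248 bases in capitals and the flanking intron in lower case.

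Kdm4a promoter: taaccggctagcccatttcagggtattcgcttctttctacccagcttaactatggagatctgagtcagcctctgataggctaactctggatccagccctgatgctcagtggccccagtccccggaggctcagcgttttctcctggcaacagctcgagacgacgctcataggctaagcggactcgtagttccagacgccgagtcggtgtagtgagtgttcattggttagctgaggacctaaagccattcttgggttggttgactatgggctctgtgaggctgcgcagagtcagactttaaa

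Kdm4a exon 9: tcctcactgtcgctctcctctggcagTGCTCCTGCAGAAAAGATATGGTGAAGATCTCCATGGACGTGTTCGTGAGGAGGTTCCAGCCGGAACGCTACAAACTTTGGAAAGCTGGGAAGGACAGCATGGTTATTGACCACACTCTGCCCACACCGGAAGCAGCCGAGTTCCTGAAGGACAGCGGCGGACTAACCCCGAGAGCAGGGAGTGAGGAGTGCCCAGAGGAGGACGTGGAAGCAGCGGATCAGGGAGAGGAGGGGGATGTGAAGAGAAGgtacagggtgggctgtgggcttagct

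The promoter held 13 CpG dinucleotides and the exon window 12, so the regions differed little in CpG number.

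Kdm2a (chr19:4314419-4398285, minus strand), which demethylates the lower states of H3K36 and binds unmethylated CpG islands, had 1088 and 888.7 normalised reads in Ctrl and 1044 and 856.7 in KO. The groups overlapped (log2 fold change -0.054 ± 0.18; DESeq2, adjusted p = 0.9996). Its highest peak, in an intron 64.5 kb from the start, had 469.4 and 402.3 reads in Ctrl and 417.1 and 395.1 in KO (log2 fold change -0.10 ± 0.22). Of its 7 peaks 5 had a negative log2 fold change and 2 a positive one. Neither of the 2 erasers passed the threshold.

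**Figure D1:**
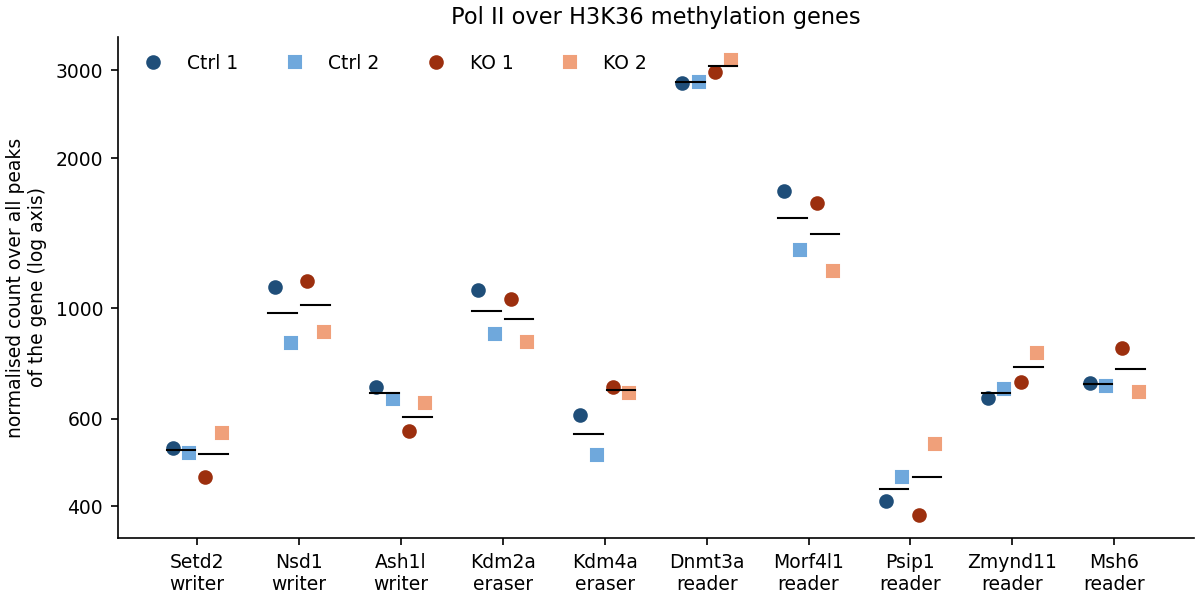
Normalised read count over all peaks of each of the 10 genes on a log axis, by library, with dark circles and light squares for libraries 1 and 2, blue for Ctrl and red for KO, and a line at each group mean. Setd2 values of KO 1 (458.1) and KO 2 (560.3) lie on either side of Ctrl, and Kdm4a is higher in both KO libraries.

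**Figure D2:**
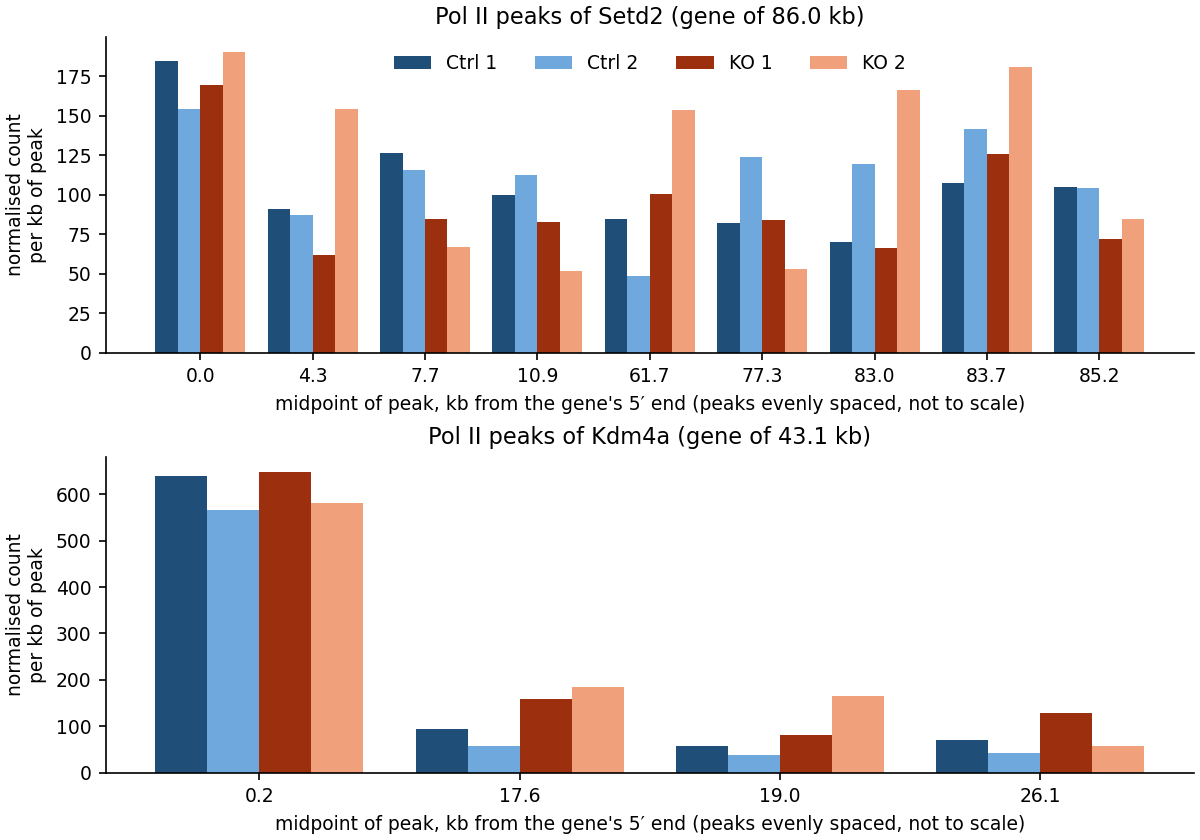
Normalised read count per kb of peak for each peak of Setd2 and Kdm4a, 1 bar per library, ordered by distance of the peak midpoint from the 5′ end of the gene. At Kdm4a the promoter peak is level and the peaks at 17.6 and 18.98 kb are higher in both KO libraries.

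Dnmt3a (chr12:3806007-3914443, plus strand) is a de novo DNA methyltransferase whose PWWP domain binds methylated H3K36. It had by far the most peaks of the 10 genes, 34, and its normalised count was 2828 and 2849 in Ctrl and 2976 and 3154 in KO. Both KO libraries were above both Ctrl libraries, by a log2 fold change of 0.11 ± 0.13 (DESeq2 Wald test, adjusted p = 0.9996). Its highest peak, in an intron 66.0 kb from the start, was level, with 485.2 and 427.1 reads in Ctrl and 478.3 and 444.5 in KO (log2 fold change 0.016 ± 0.22). One low intronic peak 7.25 kb from the start passed the unadjusted threshold, with 13.7 and 8.27 reads in Ctrl and 16.6 and 49.4 in KO (log2 fold change 1.51 ± 0.76). KO 2 was far above the other 3 libraries in it. The 4 peaks in the 3′ UTR, picked out after their values were seen, all had a positive log2 fold change, from 0.24 to 0.77, and none was below an unadjusted p of 0.05.

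Morf4l1 (chr9:90091665-90114774, minus strand) encodes MRG15, a chromodomain protein of histone acetyltransferase and deacetylase complexes. Its normalised count was 1717 and 1310 in Ctrl, against 1623 and 1189 in KO, and the groups overlapped (log2 fold change -0.10 ± 0.19; DESeq2, adjusted p = 0.9996). The spread between the 2 libraries of a group was larger than the difference between groups. Its peak at the start site had 1069 and 829.4 reads in Ctrl and 1015 and 822.6 in KO (log2 fold change -0.045 ± 0.21).

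Psip1 (chr4:83455680-83486459, minus strand), whose protein LEDGF tethers factors to H3K36-methylated chromatin, had 409.7 and 457.4 normalised reads in Ctrl and 383.8 and 533.1 in KO. KO 1 was the lowest and KO 2 the highest of the 4 libraries (log2 fold change 0.070 ± 0.21; DESeq2, adjusted p = 0.9996). Its start-site peak held nearly all of these, 398.2 and 427.1 in Ctrl and 356.5 and 495.6 in KO (log2 fold change 0.036 ± 0.24). Psip1 had the fewest peaks of the 10 genes, 2.

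Zmynd11 (chr13:9684833-9765330, minus strand), a reader of trimethylated H3K36 on the H3.3 variant that restrains elongation, had 661.3 and 688.9 normalised reads in Ctrl and 710.0 and 814.1 in KO. Both KO libraries were the higher (log2 fold change 0.17 ± 0.17; DESeq2, adjusted p = 0.9996). The highest of its 4 peaks, 1.72 kb into the gene, had 354.4 and 377.5 reads in Ctrl and 379.6 and 419 in KO (log2 fold change 0.12 ± 0.22). Its single body peak, 5.02 kb from the start, had 64.7 and 82.7 reads in Ctrl and 98.0 and 146.5 in KO. Fitted among body sums it had a log2 fold change of 0.72 ± 0.37 (DESeq2, adjusted p = 0.9998), and among single peaks it did not reach an unadjusted p of 0.05.

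Msh6 (chr17:87975062-87990892, plus strand), the mismatch repair subunit that reads H3K36me3 through a PWWP domain, had 708.7 and 697.2 normalised reads in Ctrl and 831.8 and 679.6 in KO. KO 1 was high and KO 2 lay below Ctrl, so the groups overlapped (log2 fold change 0.11 ± 0.17; DESeq2, adjusted p = 0.9996). Its start-site peak had 457.9 and 440.9 reads in Ctrl and 522.8 and 446.2 in KO (log2 fold change 0.11 ± 0.22). The 5 readers gave 4 positive values and 1 negative one.

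**Figure D3:**
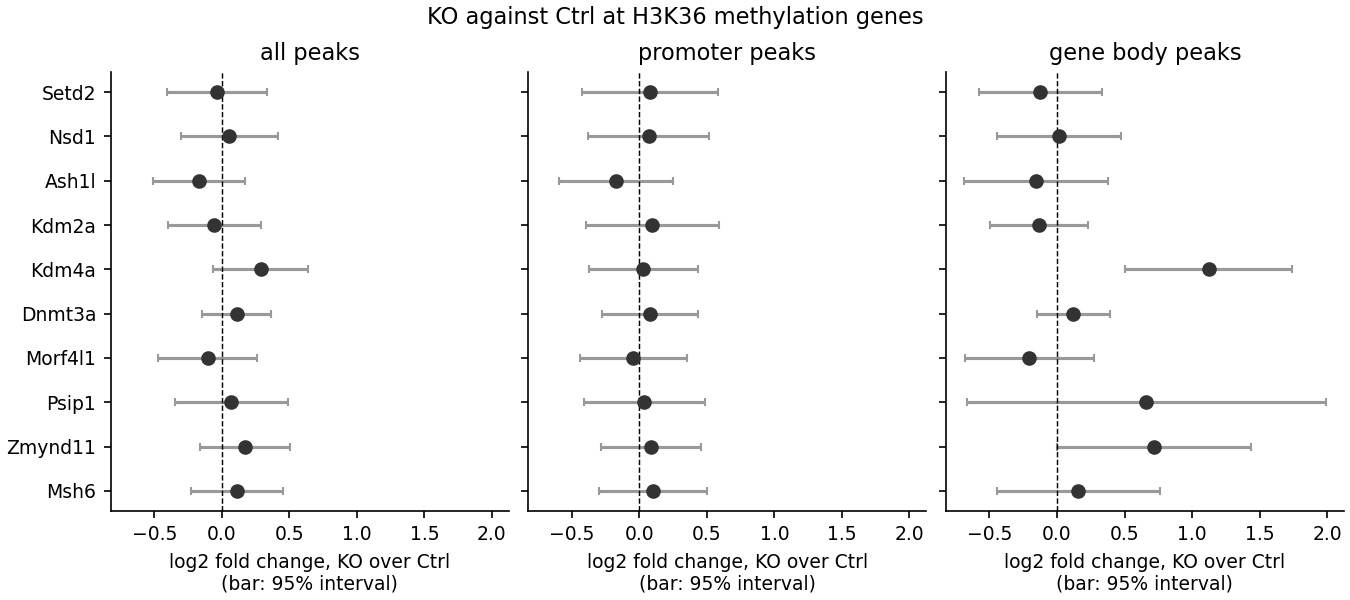
Log2 fold change of KO over Ctrl for the 10 genes, from all peaks, promoter peaks and gene body peaks, with points for the DESeq2 estimate and bars for its 95% interval. The intervals of the bodies of Kdm4a (0.51 to 1.74) and Zmynd11 (0.0029 to 1.44) lie above 0, and all promoter intervals include 0.

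Read as a group, 0 of the 10 genes passed an adjusted p of 0.05 in the DESeq2 Wald test, where 0.101% of all genes tested did. Unadjusted, 0 of 10 were below 0.05 against 2.62% of all genes, and by edgeR 0 passed after adjustment and 1 was below 0.05 unadjusted, against 0.0% and 4.89%. The KO and Ctrl libraries did not overlap at 4 of 10 genes, where 34.2% of all genes did not overlap. These were Kdm4a, Dnmt3a and Zmynd11 with KO above Ctrl, as at 15.2% of all genes, and Ash1l with KO below Ctrl, as at 19.0%. The share was thus near the background. The fold of each gene had a 95% interval, and together these ran from 0.704 to 1.56, so a change of 2-fold in a summed count was outside all 10 intervals. The sign of 6 genes turned when 1 library was left out. It turned to 0.11 for Setd2 without KO 1, to -0.12 or -0.13 for Nsd1 without Ctrl 2 or KO 1, and to 0.11 or 0.084 for Kdm2a without Ctrl 1 or KO 2. It turned to 0.11 for Morf4l1 without Ctrl 1 or KO 2, to -0.17 for Psip1 without KO 2 and to -0.051 for Msh6 without KO 1. The median log2 fold change was 0.063, beside -0.021 over all genes, and 6 of 10 values were above 0, where 45.5% of all genes were.

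The same held for single peaks. Of the 83, 0 passed an adjusted p of 0.05 in the DESeq2 Wald test, as did 0.0% of all peaks. By the edgeR quasi-likelihood test 0 of 83 passed after adjustment, against 0.0477% of all peaks. Unadjusted, 3 were below 0.05 with either tool, against 1.53% of all peaks with DESeq2 and 3.62% with edgeR, and the lowest adjusted p of a peak in DESeq2 was 0.99999. In DESeq2 the 3 were the pair of Kdm4a body peaks and the Dnmt3a intronic peak given above. Their number was 1 without Ctrl 1, 0 without Ctrl 2 or KO 2 and 4 without KO 1. Values were above 0 at 49 of 83 peaks, where 48.9% of all peaks were. Libraries did not overlap at 28 peaks, 16 higher and 12 lower in KO, where 32.3% of all peaks did not overlap. Of the 83 peaks, 23 were within 3 kb of a start site and 60 were farther away, 57 had their midpoint in an intron, 7 in a coding exon, 10 in a UTR and 9 upstream. The single peaks were mostly low, as 61 of the 83 had a mean under 100 reads, and the median SE was 0.47 on the log2 scale.

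H3K36me3 lies over gene bodies, so the balance of Pol II between body and promoter was compared next. In the promoter sums 0 of 10 genes were called (DESeq2, 0.043% of all genes) and 0 had an unadjusted p below 0.05 (1.62%). Log2 fold changes of the promoters ran from -0.17 at Ash1l to 0.10 at Msh6. In the body sums 0 of 10 were called (DESeq2, 0.0834% of all genes) and 2 had an unadjusted p below 0.05, Kdm4a and Zmynd11 (3.73% of all genes). Body values ran from -0.20 at Morf4l1 to 1.12 at Kdm4a.

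The test of the balance itself, a genotype by region term in DESeq2, called 0 of the 10 genes, where 0.0169% of 5931 genes were called, and edgeR called 0 as well. Unadjusted, 1 was below 0.05, Kdm4a, against 1.21% of all genes, and edgeR also gave 1. Of the Kdm4a reads that lay in peaks, the share in body peaks was 19.3% and 14.1% in Ctrl and 28.1% and 33.6% in KO. Both KO shares were the higher ones (log2 difference of body against promoter 1.13 ± 0.39; DESeq2, adjusted p above 0.9999, rank 7 of 5931). Without 1 library at a time, the difference stayed between 0.88 and 1.43, and Kdm4a was above 0.05 unadjusted without Ctrl 2 or without KO 2. For Setd2 the share was 56.3% and 62.6% in Ctrl, against 54.0% and 57.8% in KO, and the groups overlapped (log2 difference -0.21 ± 0.39).

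Body shares did not overlap between groups at 4 of the 10 genes, where 29.5% of all genes did not. Kdm4a, Psip1 and Zmynd11 had the higher share in KO and Kdm2a the lower. For Psip1 the share rested on 1 low body peak, whose normalised reads ran from 11.5 (Ctrl 1) to 37.5 (KO 2) and overlapped between groups. Its highest Ctrl share, 6.63%, lay close to its lowest KO share, 7.03%. Zmynd11 had 9.78% and 12.0% in Ctrl and 13.8% and 18.0% in KO (log2 difference 0.62 ± 0.38). Library 2, the shallower one, had the higher share than library 1 in both groups at 7 of the 10 genes. The matching figure over all genes was not computed. Depth cannot be told apart from library number here, and its part in the shares was not tested. At Kdm4a the deeper library had the higher share in Ctrl and the shallower one in KO. The median log2 difference of the 10 genes was 0.021, beside 0.049 over all genes.

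**Figure D4:**
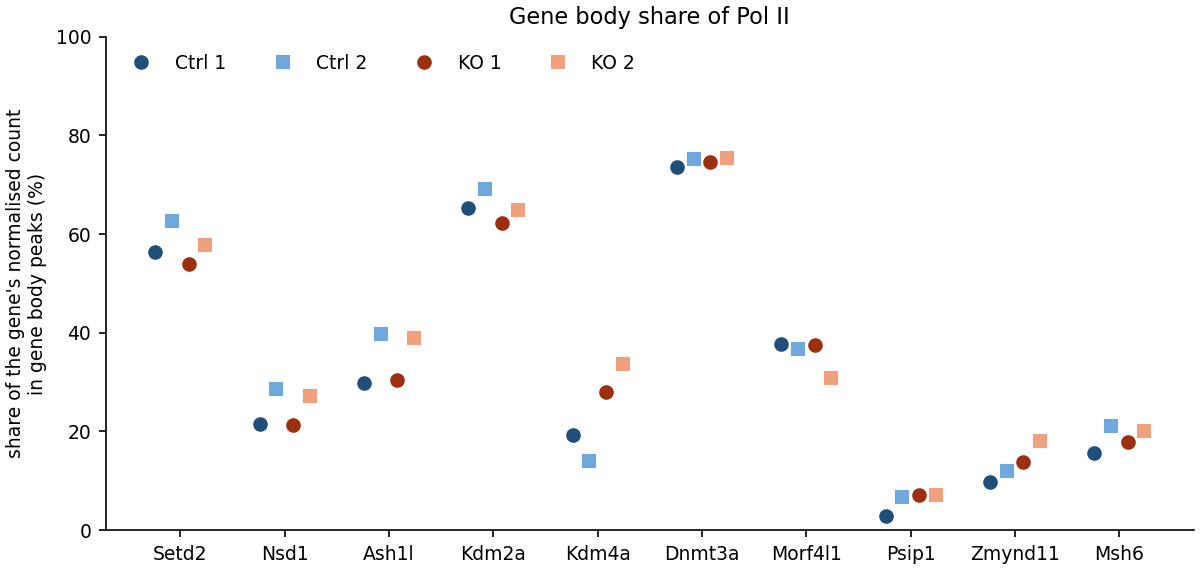
Share of the normalised read count of each gene that lies in gene body peaks, in percent, by library. At Kdm4a the KO libraries (28.1% and 33.6%) stand above the Ctrl libraries (19.3% and 14.1%), and at Setd2 the groups overlap.

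Levels were set side by side per kb of peak, since genes differ in how much of them lies in peaks. In Ctrl, Psip1 had the highest level with 269 ± 20.9 normalised reads per kb (SD, n = 2), and then came Kdm4a with 249, Morf4l1 with 209, Zmynd11 with 199, Ash1l with 180, Msh6 with 168, Nsd1 with 166, Kdm2a with 151, Setd2 with 122 and Dnmt3a with 111. Neighbours in this order overlapped in the ranges of their 4 libraries, with the exception of Zmynd11 and Ash1l. Setd2 lay near the low end, at 121 and 124 reads per kb in the Ctrl libraries and 108 and 132 in the KO libraries.

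RefSeq promoter windows of 250 bases before and 50 after a start were matched for 6 of the 10 genes, 11 windows in all. These were Setd2, Kdm4a, Morf4l1, Msh6, Dnmt3a with 3 windows and Zmynd11 with 4. They held 9 to 48 CpG dinucleotides. A GC box was found in 9 of 11, where 35.7% of all promoters had one, and a TATA box (TATAAA) in 0 of 11, against 13.6%. The CCAAT box (CCAAT) was in 4, against 37.4%, and the ETS core (CCGGAAG) in 0, against 8.86%. Each motif was read on both strands, and windows of 1 gene are not independent. The 3 Dnmt3a windows overlapped 0 peaks.

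The other genes of the pathway were taken from fixed lists. Of 31 further genes listed as writers, erasers or readers of H3K36 methylation, 29 had a peak. Of these, 0 were called by the DESeq2 Wald test or by edgeR, which called 0.0% of all genes. With DESeq2, 1 was below 0.05 unadjusted, where 2.62% of all genes were. It was Brd1, a bromodomain and PWWP protein of an acetyltransferase complex, with 381.7 and 355.5 normalised reads in Ctrl and 482.4 and 574.0 in KO. Both KO libraries were the higher (log2 fold change 0.51 ± 0.20; DESeq2, adjusted p = 0.9996). The median log2 fold change of the 29 was -0.058, with 11 of 29 above 0, where 45.5% of all genes were. Groups did not overlap at 11 of 29, near the 34.2% of all genes.

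Within these lists, the genes listed as writers ran from Nsd2 at -0.30 to Setd3 at 0.058. Those listed as erasers ran from Kdm4d at -0.13 to Kdm4c at 0.21. A place on a list does not establish activity on H3K36, which was not tested here. Kdm4c and Kdm4d are paralogs of Kdm4a. Setd3 shares 3 of its 5 peaks with Ccnk, and Kdm4d shares 1 of its 3 with Cwc15. Readers ran from Mtf2, a PRC2 subunit, at -0.25 to Dnmt3b at 1.09, where Dnmt3b had between 11.0 and 37.5 normalised reads in the 4 libraries. Partners of Setd2 in transcription, with the H3.3 genes, had a median of -0.060 over 13 genes, from Leo1 at -0.33 to Ctr9 at 0.40, both of the PAF complex. The 32 writers and erasers of other histone lysines had a median of -0.019, from Kdm6b at -0.24 to Setdb1 at 0.73. Setdb1 had 1 peak, with between 19.3 and 51.1 normalised reads in the 4 libraries (SE 0.56). Of the 32 genes, 0 were below 0.05 unadjusted with DESeq2, where 2.62% of all genes were.

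**Figure D5:**
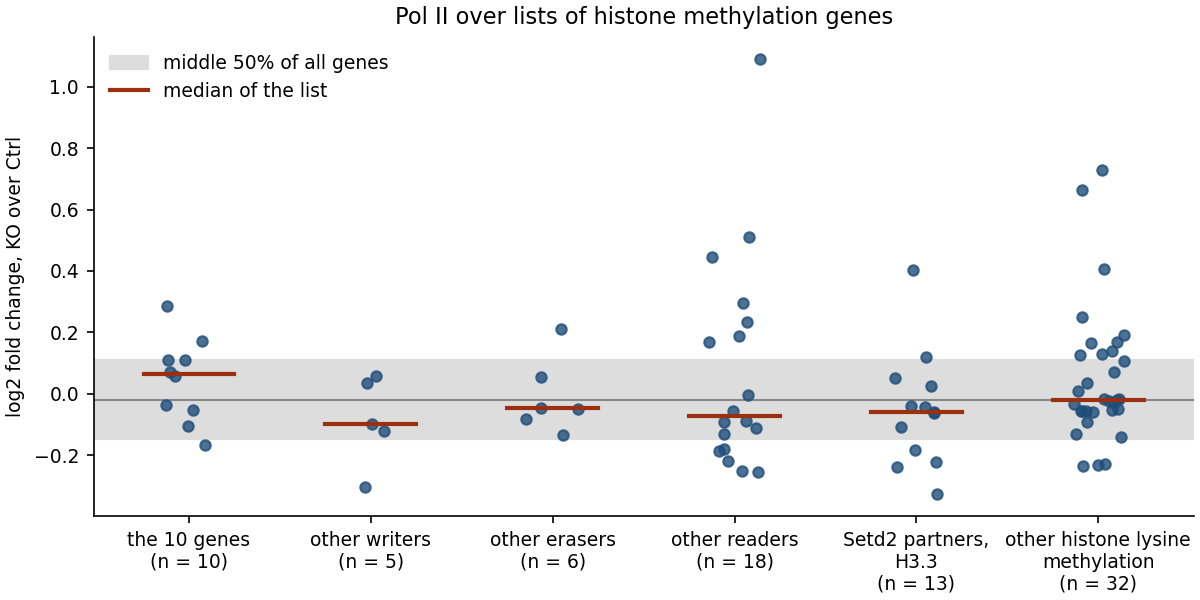
Log2 fold change of KO over Ctrl for each gene (points) in the 10 genes and 5 lists of related genes, with the median of each list in red, over the middle 50% of all genes in grey. The medians lie between -0.10 and 0.063, beside -0.021 for all genes.

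The genes whose normalised counts followed Setd2 most closely over the 4 libraries were Zpbp and Spata48, which share 1 peak and so have the same counts, and Mthfs. Their Pearson r with Setd2 on log2 values rounded to 1.00. Of 10399 genes compared, 117 (1.13%) had an r above 0.95, and the points are only 4 libraries. Of the other 9 members, the r with Setd2 ran from -0.94 at Msh6 to 0.85 at Psip1, as a description of libraries that also differ in depth.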

How the data were processed

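Read counts per merged peak were used as the authors deposited them, raw and not normalised. The authors trimmed paired-end reads, mapped them to mm10 with Bowtie2, kept unique reads, removed duplicates, used MACS2 with IgG as control and a p-value cut-off of 0.01 to find peaks, and merged and counted them with bedtools. Versions are not given in the sources used here. Removing duplicates can lower high peaks most, and peaks were called on the libraries that were compared.

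Peaks were assigned to genes with GENCODE vM21 (GRCm38), protein-coding genes first. A promoter peak had its midpoint within 3 kb of a start site of the basic set, and a body peak over 3 kb from every one. A peak in several genes counted for each, as it did for 8.7% of peaks. CUT&Tag reads carry no strand.

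The DESeq2 1.42.0 Wald test (R 4.3.3), two-sided and adjusted by Benjamini-Hochberg over all genes or all peaks, was the main test, with median-of-ratios size factors of 1.39, 0.726, 1.68 and 0.587 for Ctrl 1, Ctrl 2, KO 1 and KO 2. The edgeR 4.0.16 quasi-likelihood test was an alternative, beside other scalings, filters, peak choices, a replicate block and the removal of each library. The fits were also run on simulated data, and the outcome is not reported here. Replicates differed by more than sampling noise (chi-square per degree of freedom 4.57 in Ctrl and 4.41 in KO).

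The text names all 10 genes, the Setd2 promoter peak, the highest peak of each gene, peaks and list genes with an unadjusted p under 0.05, the highest and lowest gene of each list, and the 3 genes most like Setd2 with a mean of at least 100 reads. Other peaks named are marked where they stand. The members and lists were chosen with earlier results of these data known.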

Additional observations from a re-analysis of the deposited data

How the results depend on the processing

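With all libraries kept, the number of the 10 genes called was 0 with edgeR, total-count scaling, TMM factors and a minimum mean count of 10. It was also 0 with promoter peaks only, body peaks only, a 1 kb upstream window and peaks of 1 gene only. The replicate block called 0 too, but Setd2, Ash1l, Kdm4a and Psip1 had no adjusted p there and could not be called. Calls were also 0 for the 83 peaks and for body against promoter, under their own alternatives with all libraries kept. With the block, 64 of the 83 peaks had no adjusted p and could not be called, the Kdm4a exon 9 peak among them. Of 130 log2 fold changes of the 10 genes under 13 alternatives, the removal of each library included, 119 kept their sign. Ash1l, Kdm4a, Dnmt3a and Zmynd11 kept their sign in all 13. Among these the lowest adjusted p was 0.188, for the body of Kdm4a. Among single peaks, the Kdm4a exon 9 peak had an adjusted p of 0.126 with edgeR. With promoter peaks only, Setd2 turned to 0.076 and Kdm2a to 0.096. Leaving out 1 library at a time gave -0.17 to 0.11 for Setd2, -0.13 to 0.27 for Nsd1, -0.21 to 0.11 for Kdm2a, -0.35 to 0.11 for Morf4l1, -0.17 to 0.30 for Psip1, -0.051 to 0.25 for Msh6, and 0.17 to 0.44 for Kdm4a, which kept its sign, and the cause was not tested.

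The methods describe the mice as littermates, and whether same-numbered libraries were paired is not stated. Deviations of same-numbered libraries from their group means correlated at 0.23 across peaks with a mean of at least 10 normalised reads. With the replicate block Setd2 gave -0.042 and 4 of the 10 genes and 64 of the 83 peaks had no adjusted p. Over all genes the block raised the calls from 13 to 121, where edgeR, fitted without the block, gave 0. Over all peaks they went from 0 to 25, where edgeR without the block gave 27. KO 2, the shallowest library, had a median of 39 reads per peak.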
